A study of Mus musculus with 4 samples.

Results

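The genes described here run the unfolded protein response and the folding of secreted and membrane proteins in the endoplasmic reticulum (ER). They were 35 genes chosen by symbol, of which 34 were read from a gene table of 15768 genes, and Derl3 was not analysed here. All 34 passed the expression filter and were among the 12222 genes tested. By function they comprised 7 sensors and activating factors, 8 chaperones of the Hsp70 and Hsp90 kind with their cofactors, 2 lectin chaperones, 7 disulfide isomerases and reductases, 8 factors of ER-associated degradation, and 2 genes of protein entry and export. They were measured by bulk RNA-seq in JoMa 1.3, a mouse neural crest line immortalised through a drug-controlled Myc transgene that both groups carry. Control siRNA cultures, labelled WT, received a pool of non-targeting siRNAs, and Lkb1 siRNA cultures, labelled Lkb1 KD, received a pool against Stk11, the mouse gene for the kinase LKB1. The dose was 60 nM and the time 72 h in both groups, in a medium with growth factors and chick embryo extract. Each group held 2 libraries, 1 from batch 1 and 1 from batch 2, and all values below stand in the order of batch 1, then batch 2. Nothing in the labels says which of the 2 transfection reagents they name was used for which culture, or that the cultures were independent, so p-values measure only the spread between these samples, which may be technical. All results concern 1 cell line under a partial knockdown.

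Proteins enter the ER unfolded, and chaperones such as BiP hold them while lectins read their sugar chains and isomerases pair their cysteines. Molecules that fail to fold are pushed back to the cytosol and degraded. When unfolded protein accumulates, the membrane sensors IRE1, PERK and ATF6 signal to the nucleus. IRE1 removes a short intron from the Xbp1 message, ATF6 is cut free by Golgi proteases, and both routes give transcription factors that raise chaperone and degradation genes. PERK slows translation and lets ATF4 be made. Matrix proteins secreted by neural crest cells and their derivatives pass through this machinery.

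The libraries held from 17426719 to 19324675 gene counts. The siRNA target Stk11 (gene ID 20869) was at 122 and 118 CPM (counts scaled to library size with TMM factors) with control siRNA and at 81.4 and 82.0 CPM with Lkb1 siRNA, so both Lkb1 siRNA libraries lay below both controls (log2 fold change -0.55 ± 0.0659, the value after ± being the standard error, SE, for all log2 fold changes; adjusted p = 0.0378 by edgeR). Of 10 neural crest markers, 8 were analysed here and 7 had a mean over 1 FPKM (fragments scaled to transcript length and depth), with Ngfr as the exception. Their summed level was 166 and 159 FPKM in controls and 171 and 157 FPKM after Lkb1 siRNA, while Sox10 and Foxd3 were not analysed here. The 5 smooth muscle markers summed to 409 and 382 FPKM in controls and to 327 and 308 FPKM after Lkb1 siRNA, almost all from Acta2 and Tagln, with Myh11, Cnn1 and Des each under 1 FPKM. The 2 neuronal markers analysed, Tubb3 and Map2, summed to 9.40 and 9.14 FPKM against 13.4 and 10.5 FPKM, and the 3 glial markers analysed stayed under 1 FPKM in sum in each library. The part of these shifts in the results below was not tested.

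Most of the ER genes were slightly lower after Lkb1 siRNA. The mean was lower for 29 of 34 (85.3%), against 49.8% of all genes tested, and the median log2 fold change was -0.092, against 0.00049 for all genes. Single changes were small, from -0.49 for Herpud1 to 0.22 for Atf6b. In bulk samples, fewer cells of a type and less RNA per cell cannot be told apart. Both batches put 22 members lower (64.7%; background 33.4%) and 5 higher (14.7%; background 33.8%), while 7 had opposite signs. Both Lkb1 siRNA libraries lay below both controls for 17 members (50%, background 21.4%). They lay above both for 3, namely Atf6b, Ern1 and Syvn1 (8.82%, background 21.2%). Among the 17, the gap was narrow for P4hb (1277 against 1274 CPM in the nearest libraries) and Derl1 (109.9 against 109.4 CPM). On FPKM the groups of both genes overlapped. The median was -0.12 in batch 1 and -0.087 in batch 2, and it was -0.045 without the batch 1 control. With library size in place of TMM, 22 members were lower (64.7%), against 40.8% of all genes, and the medians were -0.059 and 0.033. The 7 whose sign then turned, Mbtps1, Dnajc3, Pdia5, P4hb, Dnajc10, Derl1 and Derl2, all had log2 fold changes smaller than their SE, and they turned on FPKM as well.

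None of the 34 passed an adjusted p of 0.05 in edgeR's quasi-likelihood test without batch in the model, where 0.0491% of genes passed as lower and 0.0327% as higher. At an unadjusted p under 0.05 the same test had 7 members lower (background 5.53%) and 2 higher (background 5.61%). At an adjusted p under 0.05, DESeq2 called Herpud1 alone, as lower (0.254% of genes), and limma on FPKM called no member. With batch as a replicate block, 10 members passed as lower (29.4%), against 6.99% of genes, and 2 as higher (5.88%), against 6.59% of genes. With a trend over transcript length also removed, 10 passed as lower (6.65% of genes did) and 1 as higher (5.92% of genes). The 10 were Atf6, Xbp1, Hspa5, Hsp90b1, Manf, Pdia3, Pdia6, Herpud1, Edem1 and Sec24d, and the 2 were Atf6b and Syvn1. The blocked fit leaves 1 residual degree of freedom per gene and leans on the spread of other genes, and DESeq2 with the same block called Herpud1, Pdia3 and Pdia6, all lower (1.1% of the genes to which it gave an adjusted p). In what follows, "passed with the block" refers to edgeR's adjusted p in that fit.

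**Figure D1:**
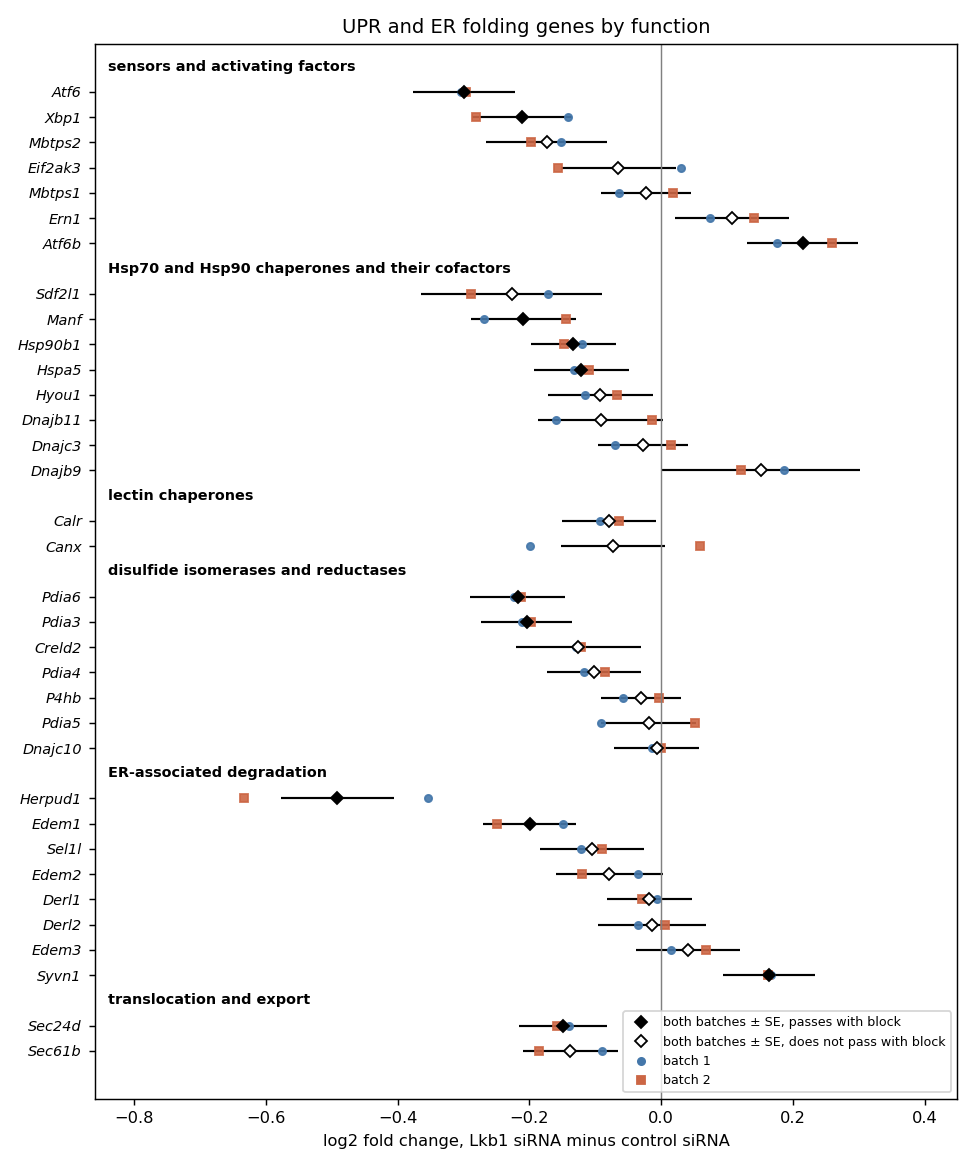
Log2 fold change of each of the 34 genes, Lkb1 siRNA minus control siRNA, by function. Diamonds are the estimate over both batches with its SE (filled where the gene passed with the replicate block), circles batch 1 and squares batch 2; most diamonds lie left of 0, from -0.49 for Herpud1 to 0.22 for Atf6b.

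Among the sensors, Atf6 and Atf6b passed with the block in opposite directions. Atf6 encodes the membrane-bound factor that is cut in the Golgi and then drives chaperone genes. It was at 52.4 and 49.9 CPM in controls and at 42.5 and 40.6 CPM after Lkb1 siRNA, with no overlap between groups. The log2 fold change was -0.30 ± 0.0777 (adjusted p = 0.227 by edgeR; 2.28e-04 with the block), and it was -0.30 in each batch. Atf6b, its close relative, went the other way, at 84.4 and 73.6 CPM in controls against 95.4 and 88.0 CPM. Both Lkb1 siRNA libraries were above both controls, with a log2 fold change of 0.22 ± 0.0845 (adjusted p = 0.388 by edgeR; 0.00162 with the block). Per length, Atf6b was the more abundant of the pair, at 34.3 FPKM against 7.07 FPKM for Atf6 in controls.

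Ern1, which encodes the sensor kinase and RNase IRE1, was at 29.5 and 28.7 CPM in controls and 31.1 and 31.7 CPM after Lkb1 siRNA (log2 fold change 0.11 ± 0.0859, adjusted p = 0.674 by edgeR; 0.393 with the block). Per length, it had the lowest level of all 34 genes in controls, at 4.88 FPKM. Eif2ak3, which encodes PERK, differed by -0.065 ± 0.0876 (adjusted p = 0.827 by edgeR), with opposite signs in the batches, 0.031 and -0.16. The Golgi proteases that cut ATF6 are encoded by Mbtps1 and Mbtps2. Mbtps1 was the most abundant gene of the sensor group at 85.7 FPKM in controls, and its difference of -0.022 ± 0.0682 (adjusted p = 0.929 by edgeR) was within its SE. Mbtps2 was at 37.0 and 34.5 CPM against 33.3 and 30.1 CPM, a difference of -0.17 that passed in neither fit (SE 0.0919; adjusted p = 0.516 by edgeR; 0.102 with the block).

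Xbp1, the message that IRE1 splices, was at 53.6 and 56.8 CPM in controls and at 48.7 and 46.7 CPM after Lkb1 siRNA, with no overlap. The log2 fold change was -0.21 ± 0.0759 (adjusted p = 0.358 by edgeR; 0.0116 with the block), with -0.14 in batch 1 and -0.28 in batch 2. The transcript table listed Xbp1 in a longer and a shorter form whose effective lengths differed by 26.1 bases, the length of the intron that IRE1 cuts out. That intron was found in the GENCODE M21 transcript of Xbp1 by the letters CNGCAGC, 19 bases of any kind and CNGCAGC again, which matched once in 2129 bases. It lies within coding exon 4 on the plus strand of GRCm38, with the window at chr11:5524262-5524327. The window is shown with the 26 intron bases in capitals, followed by the same window joined without them.
Xbp1 intron kept: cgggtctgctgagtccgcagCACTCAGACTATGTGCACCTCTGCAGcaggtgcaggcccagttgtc
Xbp1 intron removed: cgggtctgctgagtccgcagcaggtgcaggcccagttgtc
Removing the 26 bases shifts the reading frame, which runs for 267 codons with the intron and for 371 codons without it. The longer protein is the active transcription factor XBP1s.

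Of the 2 listed forms, the shorter was the one with lower values after Lkb1 siRNA. It was at 12.7 and 12.0 FPKM in controls and at 9.37 and 7.85 FPKM after Lkb1 siRNA, with both Lkb1 siRNA libraries below both controls. Its log2 fold change was -0.56 (SE 0.144, unadjusted p = 0.0201, edgeR adjusted p = 0.687 over 34279 transcripts). The longer form was at 14.4 and 17.1 FPKM against 15.9 and 16.5 FPKM, with overlapping groups and a log2 fold change of -0.0043 (SE 0.115). Of the Xbp1 counts, the shorter form had 46.5% (95% Wilson interval 43.4 to 49.6%) and 40.8% (37.9 to 43.8%) in controls, and 36.7% (33.6 to 40.0%) and 32.0% (29.0 to 35.1%) after Lkb1 siRNA. The difference in share was -9.77 points in batch 1 and -8.86 points in batch 2, and the means were 43.7% ± 4.01 and 34.3% ± 3.37 (SD, n = 2 per group). An exact two-sided permutation test gave p = 0.333, the smallest p that 2 against 2 libraries allow. The intervals of the batch 2 control and the batch 1 Lkb1 siRNA library overlapped. They cover counting error only and are too narrow, because reads that miss the 26-base site cannot tell the forms apart and were shared out by estimation.

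**Figure D2:**
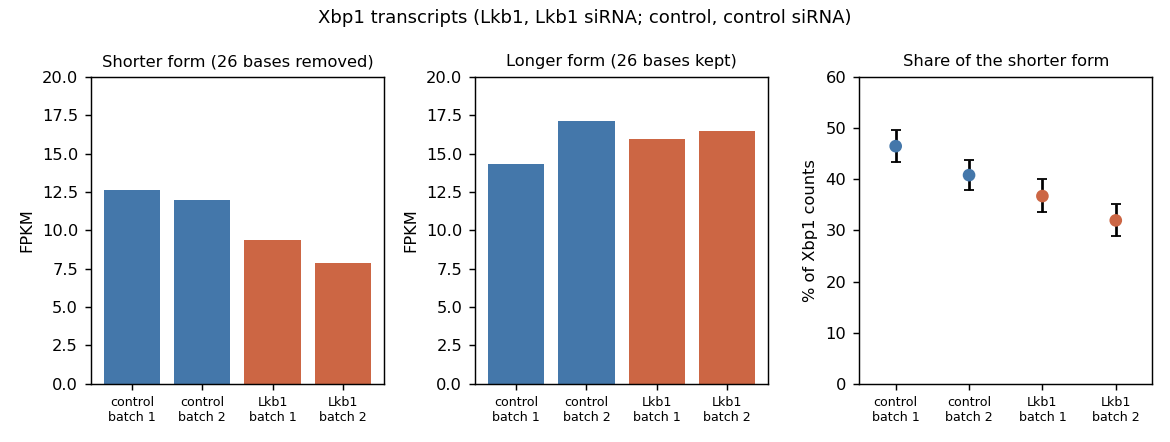
Xbp1 in the 4 libraries: bars show FPKM of the shorter and of the longer form, and points show the percentage of Xbp1 counts in the shorter form with 95% Wilson intervals. The shorter form was at 12.7 and 12.0 FPKM in controls and 9.37 and 7.85 FPKM after Lkb1 siRNA, while the longer form lay between 14.4 and 17.1 FPKM.

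The promoters of some of these genes carry the ER stress element, a paired motif at which NF-Y sits on CCAAT and ATF6 or XBP1 on CCACG. Promoters from RefSeq (GRCm38.p6, 250 bases before to 50 after the start) were found for 30 of the 34 genes and searched on both strands. The letters CCAAT and CCACG with 9 bases of any kind between them occurred in 8 of 30 (26.7%), against 37 of 27025 genes (0.14%), and ATTGG and CCACG with 1 base between them, known as element II, in 2 of 30 (6.67%), against 0.04% of genes. Among the 9761 tested genes with a promoter, these shares were 0.16 and 0.09%. The 34 genes were chosen as genes of this response, so a higher share among them describes that choice and tests nothing. CCAAT and CCACG are each part of both elements, since ATTGG is CCAAT read on the other strand. CCAAT alone occurred in 22 of 30 (73.3%), against 41.1% of all genes and 44.0% of tested genes. CCACG alone occurred in 23 of 30 (76.7%), against 35.5% of all and 52.6% of tested genes. The C/EBP-ATF letters TGATGNAA, a motif of ATF4, occurred in 1 of 30 (3.33%), against 4.51% of all and 2.64% of tested genes. The windows below show 6 of these matches with the motif in capitals, 4 from genes that passed with the block as lower, 1 from a lectin chaperone that did not pass, and 1 from a gene that passed as higher.
Hspa5, chr2:34772005-34772063, plus strand: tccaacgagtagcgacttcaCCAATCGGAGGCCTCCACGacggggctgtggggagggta
Hsp90b1, chr10:86705618-86705676, minus strand: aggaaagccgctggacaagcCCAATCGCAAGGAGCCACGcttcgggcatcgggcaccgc
Pdia6, chr12:17266471-17266529, plus strand: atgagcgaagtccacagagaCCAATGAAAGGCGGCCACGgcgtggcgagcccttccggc
Herpud1, element II, chr8:94386357-94386407, plus strand: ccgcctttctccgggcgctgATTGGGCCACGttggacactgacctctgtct
Calr, motif on the opposite strand, chr8:84847055-84847113, minus strand: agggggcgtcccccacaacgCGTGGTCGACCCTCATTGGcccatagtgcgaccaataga
Syvn1, chr19:6046512-6046570, plus strand: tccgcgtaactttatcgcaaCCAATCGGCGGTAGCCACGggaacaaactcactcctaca
The matches end 46 bases before the start in Hspa5, 79 in Pdia6, 41 in Herpud1 and 25 in Syvn1. In Hsp90b1 this match ends 193 bases before the start, and another lies 88 bases before it on the other strand. Of the 10 members with either element, 9 were lower, with a median log2 fold change of -0.11 and 4 lower and 1 higher with the block. Of the 20 without, 16 were lower, with a median of -0.072 and again 4 lower and 1 higher with the block. Of 15 other tested genes with either element, 7 were lower, with a median of 0.0039, and 2 passed as lower and 1 as higher with the block. For comparison, 49.8% of all genes tested were lower, and 6.99% passed as lower and 6.59% as higher with the block. No difference between these sets was tested. Syvn1 and Hspa5, which both carry the first element, had opposite signs. A match describes letters in a window, not binding.

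The chaperone group ran from some of the most abundant members, Hspa5 and Hsp90b1, at 493 and 496 FPKM in controls, to Dnajb9 at 5.25 FPKM. Hspa5, which encodes BiP, the Hsp70 of the ER, was at 1175 and 1073 CPM in controls and at 1073 and 995 CPM after Lkb1 siRNA. The batch 1 Lkb1 siRNA library was close to the batch 2 control, and the log2 fold change was -0.12 ± 0.0720 (adjusted p = 0.56 by edgeR; 0.0464 with the block). Hsp90b1, which encodes the ER Hsp90 paralog GRP94, was at 1262 and 1217 CPM in controls against 1162 and 1098 CPM. Its groups did not overlap, and its log2 fold change was -0.13 ± 0.0641 (adjusted p = 0.483 by edgeR; 0.0224 with the block). Manf encodes a secreted protein of the ER lumen that binds BiP and is raised in ER stress. It was at 151 and 132 CPM in controls and at 125 and 120 CPM after Lkb1 siRNA, again without overlap (log2 fold change -0.21 ± 0.0796, adjusted p = 0.379 by edgeR; 8.04e-04 with the block).

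The other members of the chaperone group passed in neither fit. Sdf2l1, a partner of the J protein Dnajb11 at BiP, was at 15.0 and 13.5 CPM against 13.3 and 11.04 CPM (log2 fold change -0.23 ± 0.137, adjusted p = 0.566 by edgeR). Hyou1, the large Hsp70-like exchange factor of BiP, and Dnajb11 itself differed by -0.092 and -0.091, with overlapping groups. Dnajc3, a J protein also known as P58IPK, differed by -0.027. Dnajb9, a J protein that delivers BiP to IRE1, was the one member of the group with a higher mean, at 7.75 and 8.97 CPM against 8.82 and 9.76 CPM. Its groups overlapped, and its log2 fold change of 0.15 had an SE of 0.150.

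Calr and Canx, the soluble and the membrane-bound lectin chaperones that hold glycoproteins during folding, passed in neither fit. Calr had the highest level of all 34 genes per length in controls, at 705 FPKM. It was at 1232 and 1126 CPM against 1156 and 1077 CPM, with overlapping groups and a log2 fold change of -0.079 ± 0.0713 (adjusted p = 0.718 by edgeR). Canx was at 833 and 724 CPM against 726 and 754 CPM, so that only the batch 1 control stood above the other libraries. Its log2 fold change of -0.073 ± 0.0783 (adjusted p = 0.769 by edgeR) was -0.20 in batch 1 and 0.060 in batch 2, and without the batch 1 control it was 0.032.

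All 7 disulfide isomerases and reductases had lower means with TMM (4 of 7 with library size alone), and 2 of them passed with the block. Pdia6 encodes an isomerase that also acts on BiP clients and on IRE1. It was at 406 and 376 CPM in controls and at 348 and 325 CPM after Lkb1 siRNA, without overlap (log2 fold change -0.22 ± 0.0718, adjusted p = 0.33 by edgeR; 2.09e-04 with the block). Pdia3, the isomerase that works with Calr and Canx on glycoproteins, was at 889.9 and 827 CPM against 769 and 722 CPM. Its groups did not overlap either, and its log2 fold change was -0.20 ± 0.0692 (adjusted p = 0.343 by edgeR; 2.11e-04 with the block). The other 5 of this function passed in neither fit. P4hb, the classical isomerase PDI and a subunit of collagen prolyl hydroxylase, was at 1291 and 1277 CPM against 1240 and 1274 CPM (log2 fold change -0.030 ± 0.0606, adjusted p = 0.884 by edgeR). Dnajc10, a reductase that acts in degradation, and Pdia5 differed by -0.0069 and -0.019, each with overlapping groups. Pdia4 and Creld2 lay between, at -0.10 and -0.13 (edgeR adjusted p = 0.631 and 0.657).

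ER-associated degradation held both the member with the most negative log2 fold change and one that passed as higher with the block. Herpud1 encodes a ubiquitin-like membrane protein that organises the HRD1 ligase complex. It was at 63.4 and 67.3 CPM in controls and at 49.6 and 43.4 CPM after Lkb1 siRNA, a change of -28.9% with a wide gap between the groups. The log2 fold change was -0.49 ± 0.0858 (adjusted p = 0.0908 by edgeR; 9.87e-13 with the block), with -0.35 in batch 1 and -0.63 in batch 2. DESeq2 without the block gave it an adjusted p of 0.0166, and edgeR gave 0.184 without the batch 2 Lkb1 siRNA library. Its main transcript, which held 87.1 to 91.4% of its counts in each library, differed by -0.52 ± 0.115 (adjusted p = 0.687 by edgeR over all transcripts).

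Syvn1, the gene of the HRD1 ligase itself, was higher, at 66.0 and 68.9 CPM in controls against 74.1 and 77.1 CPM. The groups did not overlap and the log2 fold change was 0.16 ± 0.0696 (adjusted p = 0.426 by edgeR; 0.036 with the block, and 0.0604 with the block and a trend with transcript length removed). The main Syvn1 transcript, with 61.2 to 70.7% of its counts, differed by 0.068 ± 0.0884. Edem1, which encodes a mannosidase-like factor that marks misfolded glycoproteins, was at 65.9 and 67.7 CPM against 59.4 and 57.0 CPM. It was lower in both batches, with a log2 fold change of -0.20 ± 0.0705 (adjusted p = 0.358 by edgeR; 0.0113 with the block). The main transcript of Edem1, with 77.9 to 97.8% of its counts, differed by only -0.024 ± 0.121, and the other listed transcript by -1.46 ± 0.948. The Edem1 relatives Edem2 and Edem3 differed by -0.079 and 0.041 (edgeR adjusted p = 0.761 and 0.881). Sel1l, the adaptor that holds HRD1, differed by -0.10 ± 0.0783 (adjusted p = 0.652 by edgeR), and its groups overlapped. Derl1 and Derl2, channel-like proteins of the same complex, differed by -0.018 and -0.013, each within its SE.

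Of the transcripts, the longer of the 2 listed for Sel1l held 81.9 and 81.2% of its counts in controls and 77.4 and 63.8% after Lkb1 siRNA, and the gap came mainly from the batch 2 Lkb1 siRNA library. The longer form differed by -0.33 ± 0.0806 (adjusted p = 0.687 by edgeR). Over all members, 77 transcripts were listed and 72 tested. None passed in either edgeR fit, where 0% of 34279 transcripts passed. At an unadjusted p under 0.05, 6 member transcripts were lower (background 3.61%) and 0 higher (background 3.13%). With the block these were 9 lower (background 3.01%) and 1 higher (background 2.13%).

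The 2 genes of traffic into and out of the ER were both lower in each batch. Sec24d, a cargo-binding subunit of the COPII coat needed for collagen export, was at 161 and 169 CPM in controls against 146 and 151 CPM. The groups did not overlap, and the log2 fold change was -0.15 ± 0.0669 (adjusted p = 0.449 by edgeR; 0.023 with the block). Sec61b, a small subunit of the translocation channel, was at 61.6 and 62.5 CPM against 57.9 and 54.9 CPM. Its log2 fold change of -0.14 ± 0.0717 (adjusted p = 0.512 by edgeR; 0.117 with the block) passed in neither fit. With the block and the trend over transcript length removed it was -0.054 (adjusted p = 0.638 by edgeR).

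**Figure D3:**
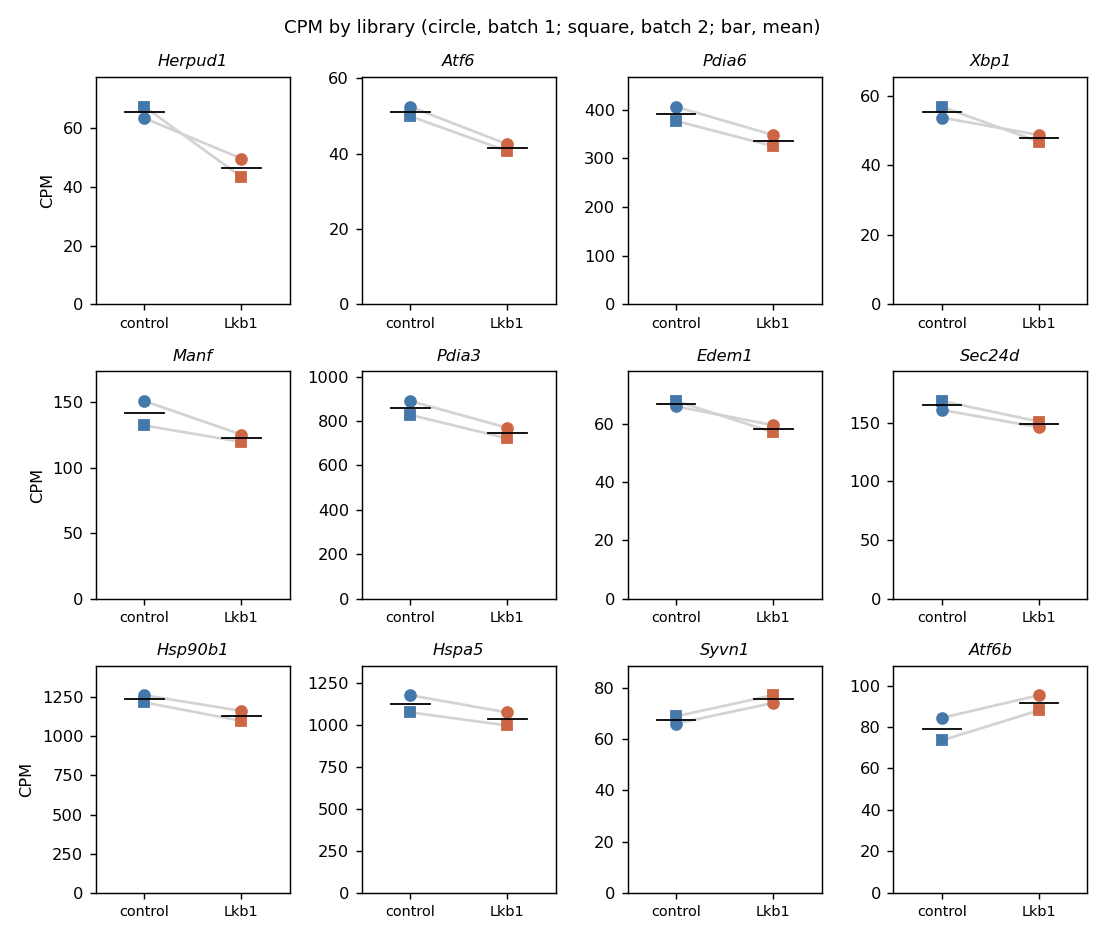
CPM of the 12 genes that passed with the replicate block, in control siRNA (left) and Lkb1 siRNA (right) libraries, with circles for batch 1, squares for batch 2, grey lines joining libraries of a batch and black bars for group means. Each axis starts at 0, which shows how small most differences are beside the level: Herpud1 goes from 63.4 and 67.3 to 49.6 and 43.4 CPM, and Atf6b and Syvn1 go up in both batches.

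Set side by side by function, the median log2 fold change was -0.065 for the sensors (5 of 7 lower), -0.11 for the Hsp70 and Hsp90 chaperones (7 of 8), -0.076 for the lectin chaperones (2 of 2), -0.10 for the disulfide group (7 of 7), -0.048 for degradation (6 of 8) and -0.14 for entry and export (2 of 2). In the blocked fit the lower and higher calls were 2 and 1 for the sensors, 3 and 0 for the chaperones, 0 and 0 for the lectins, 2 and 0 for the disulfide group, 2 and 1 for degradation and 1 and 0 for entry and export, where 6.99% of all genes passed as lower and 6.59% as higher; with 2 to 8 genes a group, 1 call is already above those shares. Both genes that passed as higher thus came from the sensor and degradation groups, which also held the 2 members with the most negative log2 fold changes, Herpud1 and Atf6. No difference between functions was tested, and the order of the medians depended on single libraries. Without the batch 1 control, the chaperone and disulfide medians were -0.030 and -0.043 and that of degradation -0.088. Without the batch 2 control, these were -0.18, -0.16 and -0.016, and that of the sensors, -0.12 without the batch 1 control, was -0.012. Leaving out the batch 2 Lkb1 siRNA library gave -0.054 for the chaperones, -0.059 for the disulfide group and -0.077 for degradation, and leaving out that of batch 1 gave -0.16 for the chaperones and -0.024 for degradation. The lectin median was 0.0099 without the batch 1 control and -0.16 without the batch 2 control. Entry and export stayed between -0.16 and -0.12 with 1 library left out, and was at -0.11 with the block and the length trend removed. Their levels spanned a wide range: median FPKM in controls was 8.52 for the sensors and 18.7 for degradation, against 47.0 for the chaperones, 117 for the disulfide group and 449 for the lectins. The summed CPM of all 34 genes was 9630 and 9092 in controls and 8867 and 8612 after Lkb1 siRNA, or 0.943 and 0.908% against 0.894 and 0.873% of the CPM of all genes tested.

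Of the genes that passed with the block, Atf6b and Hspa5 also passed between the batches. Between batch 2 and batch 1, with the siRNA group in the model, 4 members passed as lower (11.8%; background 6.62%) and 0 as higher (background 6.3%). These were Dnajb11 (log2 difference -0.19, edgeR adjusted p = 0.0123), Hyou1 (-0.14, 0.03), Atf6b (-0.16, 0.0384) and Hspa5 (-0.12, 0.05, just under the threshold before rounding). For Hspa5 the batch difference and that after Lkb1 siRNA were both -0.12. By contrast Herpud1, Edem1 and Xbp1 differed between the batches by -0.040, -0.0087 and 0.015, none of which passed.

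Other genes of stress signalling and of the ER, from lists chosen with earlier results of these data known, gave the following counts. For comparison, 49.8% of all genes tested were lower, and with the block 6.99% passed as lower and 6.59% as higher. In the list named PERK and ATF4 arm, 12 of 16 were lower (75%), with a median of -0.18. This list does not hold Eif2ak3 itself, and it includes genes of kinases other than PERK. Trib3, a pseudokinase of stress signalling, and Atf5, a stress-induced transcription factor, fell by 1.10 and 0.62 on the log2 scale (edgeR adjusted p = 0.026 and 0.0378), and 8 passed as lower with the block. Among 20 genes listed as other ER oxidoreductases and prolyl isomerases, 16 were lower (median -0.090), and 6 passed as lower and 1 as higher with the block. The list also holds folding factors of other kinds, such as Sil1. The 3 with the smallest p were Sil1, an exchange factor of BiP, at 24.1 and 29.6 CPM against 18.96 and 20.05 CPM (log2 fold change -0.46 ± 0.119, adjusted p = 0.227 by edgeR; 6.47e-06 with the block), the prolyl isomerase Fkbp9 at -0.24, and Ero1a, the oxidase that recharges PDI, also at -0.24. In the translocon list 16 of 20 were lower (median -0.062) and only Sec61a2 passed with the block, as higher (0.17, adjusted p = 0.0275 by edgeR with the block and 0.388 without it). For the oligosaccharyltransferase and glycan trimming list, 15 of 19 were lower (median -0.045) and none passed in either edgeR fit, with 0 at an unadjusted p under 0.05 without the block. Of 18 genes listed as other degradation factors, among them Sec16a, a gene of ER exit sites, 10 were lower (55.6%; median -0.0011). None passed without the block, with 0 at an unadjusted p under 0.05 in edgeR, and 1 passed as lower with it.

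**Figure D4:**
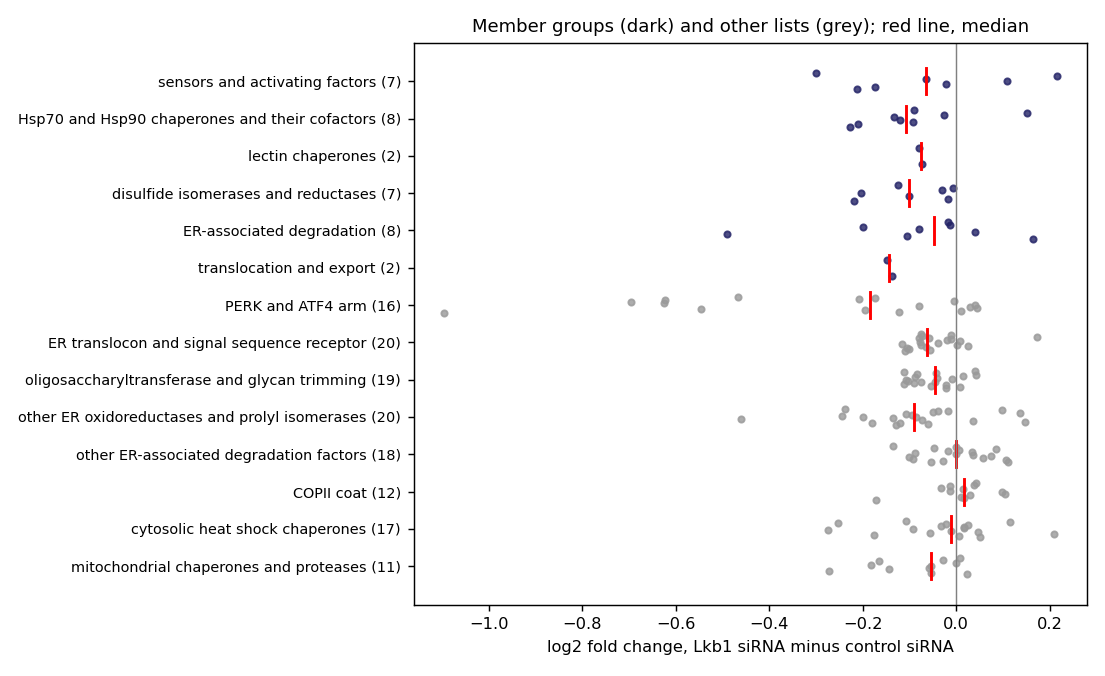
Log2 fold change, Lkb1 siRNA minus control siRNA, of each gene in the 6 functional groups (dark points) and in the other lists (grey points), with the number tested in brackets and the median as a red line. Medians of the 6 groups run from -0.14 to -0.048, and the PERK and ATF4 list reaches -1.10 at Trib3.

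Some counts may hold reads of a neighbour, since the sources used here do not state whether counting used strand. By RefSeq (GRCm38), the spans of Hspa5, Mbtps2, Pdia3, Syvn1 and Derl2 overlap those of the tested genes Rabepk, Yy2, Catsper2, Mrpl49 and Mis12. These overlaps are 1921, 2867, 697, 89 and 274 bases long. Neighbours that were not among the genes tested overlap Atf6 (Gm29733 by 420 and Gm9929 by 756 bases), Edem1 (Gm35417, 4232) and Dnajb11 (Gm30505, 4652). The same holds for Dnajc3 (Gm4678, 668) and Pdia6 (Atp6v1c2, 65), and small RNA genes lie within the spans of Atf6, Eif2ak3, Pdia4 and Syvn1. Values of all these members are uncertain to that extent.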

How the data were processed

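Bulk RNA-seq of 4 JoMa 1.3 cultures was analysed, 2 with control siRNA and 2 with Lkb1 siRNA. Build GRCm39 and the tools RSEM 1.2.8, Bowtie2 2.2.5 and HISAT2 2.0.4 are named in the submitters' processing notes without their roles; the annotation release is not given in the sources used here. The deposited read counts were expected counts that the authors estimated per gene and transcript, as their values show: 5.73 to 5.97% of gene counts and 64.1 to 66.1% of transcript counts in a library were not whole. The FPKM values were computed by the authors, per the file headers, relative to length and depth. The deposited TPM values and the authors' normalised read counts, a signal scaled per library, entered no result. In 31 cells of the gene table and 73 of the transcript table a doubled decimal point was read as 1 point.

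Counts were rounded, filtered (edgeR's filterByExpr, minimum count 10) and tested in R 4.3.3 with edgeR 4.0.16 (TMM, robust quasi-likelihood F-test), and p-values were adjusted by Benjamini and Hochberg over all 12222 genes or 34279 transcripts. Log2 fold changes are Lkb1 siRNA minus control siRNA, and the value after ± is the SE from the F statistic; transcript tests carry no correction for assignment uncertainty. The labels mark the number shared by libraries as a batch, so the numbers pair the libraries; same-batch deviations correlated at 0.259. Batch as a replicate block, DESeq2 1.42.0, limma 3.58.1 on log2 of FPKM plus 1 or 0.1, other scalings and filters, removal of a trend with transcript length, and leaving out each library were alternatives. The edgeR script was tested on simulated data.

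The members and all lists were chosen with earlier results of these data known. Every member is named. Full statistics were given for members passing in either edgeR fit and the 2 with the smallest p of each function, and in addition for members singled out after their values were seen; up to 3 genes were named per other list, and a result for a gene of these lists is not reported here. Sequences came from RefSeq (GRCm38.p6) promoters and GENCODE M21; no coordinates were converted.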

Additional observations from a re-analysis of the deposited data

How the results depend on the processing

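The 34 members had 510 log2 fold changes over 15 settings. Of these, 445 kept sign and side of the threshold, 32 passed it newly and 33 changed sign. No member passed in the main test, so none could lose the threshold. Over these settings 24 members never changed sign. With 2 libraries per group the count of calls depended on the setting. The main test called 4 genes higher and 6 lower. With the replicate block these were 806 and 854 (members 2 and 10), and with the block and the length trend removed 723 and 813 (members 1 and 10). Library size alone gave 2 and 1, at least 1 count in any library 13 and 32, a mean of 5 CPM 2 and 2, limma on FPKM plus 1 or plus 0.1 gave 0 and 0, DESeq2 18 and 31, and DESeq2 with the replicate block 48 and 77. Members lower were 1 with at least 1 count in any library (Herpud1), 1 with DESeq2 (Herpud1) and 3 with its block. Leaving out 1 library gave 24 to 136 genes higher, 42 to 143 lower and 0 to 2 members lower, the lone library being assumed to vary like the other group: Herpud1 passed except without the batch 2 Lkb1 siRNA library, and Manf also passed without the batch 2 control. The replicate block changed no other call on the members. Between batches, batch alone gave 0 and 0 genes and 0 members, and DESeq2 48 and 67 genes and 0 members. Library size alone gave 1 member higher and 1 lower. The share of all genes passing in that setting is not given here, so these member counts have no background.

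The members' median of -0.092 was -0.059 with library size alone, -0.054 and -0.055 with limma (plus 1 and plus 0.1), and -0.14 to -0.045 with 1 library left out. The degradation median was 0.0012 with either limma setting, and the lectin median ran from -0.16 to 0.0099 with 1 library left out. Signs turned with library size alone, limma plus 1 and limma plus 0.1, in that order, for Mbtps1 (0.010, 0.011, 0.011), Dnajc3 (0.0055, 0.0064, 0.0068), Pdia5 (0.014, 0.018, 0.019), P4hb (0.0021, 0.0053, 0.0053), Dnajc10 (0.026, 0.028, 0.028), Derl1 (0.014, 0.017, 0.018) and Derl2 (0.019, 0.019, 0.020). Pdia5 was also at 0.0051 and 0.0052 with the length trend removed, without and with the block. With 1 library left out, values ran from -0.074 to 0.031 for Mbtps1, -0.22 to 0.046 for Dnajb11, -0.17 to 0.032 for Canx, -0.064 to 0.028 for Pdia5, -0.023 to 0.0088 for Dnajc10, -0.0087 to 0.090 for Edem3 and -0.063 to 0.038 for Derl2. The cause was not tested. The difference in the Xbp1 shorter share of -9.31 points was -9.37 from FPKM, an alternative chosen after seeing the data.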

Other observations

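Chaperones outside the ER gave a mixed picture beside the ER genes. In mitochondria, 8 of 11 chaperones and proteases were lower after Lkb1 siRNA (72.7%; background 49.8%), with a median log2 fold change of -0.055. None passed in edgeR without the block (1 at an unadjusted p under 0.05), and 3 passed as lower with it (27.3%, background 6.99%). In edgeR's test of batch 2 against batch 1, 54.5% of this list passed as lower (background 6.62%) and 0% as higher (background 6.3%). Those lower included Hspa9 (log2 difference -0.17, adjusted p = 0.00355 by edgeR). Lonp1, the matrix protease, was at 237 and 229 CPM in controls and at 195 and 191 CPM after Lkb1 siRNA (log2 fold change -0.27 ± 0.0654, adjusted p = 0.196 by edgeR; 1.77e-06 with the block). Hspa9, the mitochondrial Hsp70, was at 902 and 787 CPM against 780 and 708 CPM (log2 fold change -0.18, edgeR adjusted p = 0.453; 0.00135 with the block), and Htra2, a protease of the intermembrane space, at -0.14 passed in neither fit. In the cytosol, 9 of 17 heat shock chaperones were lower (52.9%; background 49.8%), with a median of -0.012. None passed in either edgeR fit, with 0 at an unadjusted p under 0.05 without the block. Hsp90ab1, the constitutive cytosolic Hsp90, was at 4496 and 4263 CPM against 4176 and 4044 CPM, a log2 fold change of -0.092 ± 0.0597 (adjusted p = 0.596 by edgeR).

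Of 12 further genes of the COPII coat that carries cargo out of the ER, 4 were lower (33.3%; background 49.8%) and 8 higher (median 0.016). With the block 8.33% of them passed as lower (background 6.99%). Only Tfg, a factor of ER exit sites, passed with the block, at 123 and 124 CPM against 115 and 104 CPM (log2 fold change -0.17 ± 0.0734, adjusted p = 0.428 by edgeR; 0.00826 with the block). Sec24a, a paralog of Sec24d, was at 0.10 against -0.15 for Sec24d, and the difference between the 2 genes was not tested.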
